A study of Homo sapiens with 12 samples.

Results

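Long intergenic RNA genes with enough reads to be followed one by one are described here, as chromatin accessibility was measured over them in HEK293T cells, a human embryonic kidney line, carrying the fusion genes of the t(4;11) translocation. The members were chosen by their counts: all genes whose symbol starts with LINC and whose raw counts, summed over the 12 samples, reached 240. There were 65 such genes among 1849 LINC entries and 52889 gene entries in all. The level of a member is a description and not a finding. LINC01184 with 250 and LINC01301 with 248 summed counts lay just inside the limit, and LINC01901 with 239 and LINC02256 with 237 just outside it. The 3 d28 libraries, 2 of them the deepest of all, gave together between 23.2% and 40.7% of a member's summed counts (median 32.5%).

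The assay was ATAC-Seq, in which a transposase inserts sequencing adapters into open DNA, and each sample was read out as 1 count per gene. There were 4 groups of 3 samples, numbered in the labels as biological replicates 1 to 3. Mock cells carried the empty vector pSBTet-GP. The d0 cells expressed MLL-AF4 constitutively, the d3 cells carried MLL-AF4 plus AF4-MLL that had been induced with 1 µg/ml doxycycline for 48 h, and the d28 cells were labelled as constitutive MLL-AF4 cells at day 28, 25 days after the end, in the study's design, of AF4-MLL induction. Per the study's methods MLL-AF4 was stably integrated with a Sleeping Beauty vector bearing eGFP and puromycin resistance, and AF4-MLL was added later from a doxycycline-inducible vector under blasticidin. A difference from Mock therefore includes the vector, the drug selection and the derivation of the line as well as the fusion proteins, and these cannot be told apart. The day on which the Mock cells were harvested is not given in the sources used here, so time in culture cannot be told apart from them either. Nor can a change in every cell be told from a change in a part of the cells.

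Long intergenic RNA genes are transcribed from their own promoters outside protein-coding genes, and many start next to a coding gene and run in the opposite direction. Some act in cis on the neighbouring gene, some host a microRNA, and for most no function is established, so that the numbered symbol LINC is only a placeholder. MLL (KMT2A) binds unmethylated CG-rich DNA through its CXXC domain, a property kept in MLL-AF4, which is why the CG content at the starts of these genes is shown beside their counts.

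To show how unlike these starts are, the RefSeq window of 250 bases before to 50 bases after the first annotated base is printed for 5 of the genes that the tests below called, with every CG dinucleotide in capitals. All are on GRCh38.p14 and read 5′ to 3′ on the gene's own strand: LINC02192 (chr16:47887081-47887380, minus strand, 3 CG), LINC00910 (chr17:43388849-43389148, minus strand, 13 CG), LINC01586 (chr15:88605061-88605360, minus strand, 28 CG), LINC00894 (chrX:149938298-149938597, plus strand, 31 CG) and LINC01465 (chr12:62603385-62603684, minus strand, 41 CG).
LINC02192: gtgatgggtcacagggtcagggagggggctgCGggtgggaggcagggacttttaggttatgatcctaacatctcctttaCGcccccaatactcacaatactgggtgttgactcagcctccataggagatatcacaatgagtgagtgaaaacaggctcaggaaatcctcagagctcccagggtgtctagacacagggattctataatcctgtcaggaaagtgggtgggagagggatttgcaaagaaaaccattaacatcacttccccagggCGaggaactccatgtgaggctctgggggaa
LINC00910: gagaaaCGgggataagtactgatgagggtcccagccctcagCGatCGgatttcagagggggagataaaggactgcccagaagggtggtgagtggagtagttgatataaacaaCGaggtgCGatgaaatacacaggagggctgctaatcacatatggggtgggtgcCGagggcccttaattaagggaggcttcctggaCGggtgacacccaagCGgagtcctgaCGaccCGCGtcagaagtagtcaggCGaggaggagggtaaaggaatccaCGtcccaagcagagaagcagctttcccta
LINC01586: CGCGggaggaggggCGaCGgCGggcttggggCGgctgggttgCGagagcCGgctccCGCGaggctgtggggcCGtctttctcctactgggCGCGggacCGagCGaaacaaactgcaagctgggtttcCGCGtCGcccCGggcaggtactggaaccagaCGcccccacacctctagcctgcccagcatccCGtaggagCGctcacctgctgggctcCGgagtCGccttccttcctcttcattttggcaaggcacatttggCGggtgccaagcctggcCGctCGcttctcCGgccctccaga
LINC00894: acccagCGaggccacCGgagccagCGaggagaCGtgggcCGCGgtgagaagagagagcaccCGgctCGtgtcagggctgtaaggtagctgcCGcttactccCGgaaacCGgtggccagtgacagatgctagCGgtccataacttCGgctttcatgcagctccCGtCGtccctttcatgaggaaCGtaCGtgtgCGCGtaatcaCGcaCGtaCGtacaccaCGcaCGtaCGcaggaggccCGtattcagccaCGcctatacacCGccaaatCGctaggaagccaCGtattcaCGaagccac
LINC01465: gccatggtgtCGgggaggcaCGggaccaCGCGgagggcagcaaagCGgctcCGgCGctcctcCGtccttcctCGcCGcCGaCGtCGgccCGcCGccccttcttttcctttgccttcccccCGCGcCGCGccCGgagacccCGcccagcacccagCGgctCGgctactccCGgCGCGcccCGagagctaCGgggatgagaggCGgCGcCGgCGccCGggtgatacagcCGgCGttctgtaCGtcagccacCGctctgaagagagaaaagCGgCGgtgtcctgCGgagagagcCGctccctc

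In addition, 3 members hold a microRNA hairpin or lie within 1 kb of one. LINC00461, named MIR9-2HG by RefSeq, holds the MIR9-2 hairpin (chr5:88666853-88666939, minus strand), and the MIRLET7I hairpin (chr12:62603686-62603769, plus strand) lies 252 bp from the start of LINC01465 on the opposite strand. LINC-PINT ends beside the MIR29B1 and MIR29A hairpins. The mature 5p arms of miR-9 and let-7i are given, as those of a host transcript with a high count and of a neighbour of a called gene, with the seed, bases 2 to 8, in capitals.
hsa-miR-9-5p: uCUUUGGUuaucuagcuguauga
hsa-let-7i-5p: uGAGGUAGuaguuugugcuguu

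All 65 members were matched to RefSeq on GRCh38.p14, 56 by symbol and 9 by an older symbol. RefSeq now calls 6 of them divergent transcripts of a coding gene: LINC00894 is EOLA2-DT, LINC00893 is EOLA1-DT, LINC01715 is TAF12-DT, LINC00167 is PRDM10-DT, LINC00271 is AHI1-DT and LINC01184 is SLC12A2-DT. LINC01578 is now CHASERR and LINC00476 is ERCC6L2-AS1. The members lay on 21 chromosomes, 12 of them on chromosome 1. Their annotated spans ran from 561 bp in LINC00235 to 232364 bp in LINC-PINT (median 10036 bp), and 18 overlapped another tested gene, whose reads cannot be separated from theirs with certainty because the counting rule for overlaps is not given in the sources used here. EOLA1 and EOLA2 are near-identical copies on the X chromosome, so that reads could also be shared between LINC00893 and LINC00894.

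The counts were low. Scaled to the mean library, the members had a mean normalized count over 12 samples between 20.3 and 110 (median 29.6). No member was at 0 in any sample, and the lowest raw count was 4. LINC01003 had the highest count, with a group mean of 101 ± 13.5 in Mock, 123 ± 19.3 in d0, 111 ± 10.1 in d3 and 104 ± 8.08 in d28 (SD, n = 3 each). Its groups overlapped in every comparison. The next in order, LINC00649, had group means from 74.7 ± 5.15 in d28 to 85.2 ± 3.62 in d0, with these 2 groups not overlapping and no call. LINC00461, the host transcript of miR-9-2, followed with 58.6 ± 11.2 in Mock and 74.3 to 79.3 in the fusion groups, and LINC00324 with 60.0 to 71.8. Neither LINC00461 nor LINC00324 was called in any comparison.

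Because the rule left a narrow range of counts, the count per kb of annotated span falls with the span by construction. Per kb the range was from 0.114 to 77.1 normalized counts. The short genes led: LINC01003 had 77.1 normalized counts per kb, LINC00235 51.3, LINC01962 41.7, LINC01311 37.6, LINC01465 33.2, LINC00324 19.3, LINC01635 17.3 and LINC01816 17.2. LINC01635 shares part of its span with LINC00339, on the other strand, and LINC00235 starts 305 bp from CAPN15.

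An annotated RefSeq start window was found for 53 members and for 1216 of the LINC genes under the limit. Of the 53 members, 12 (22.6%) started within 1 kb of the start of another gene annotated as protein coding, 11 of them on the opposite strand, against 43 (3.54%) of the 1216. The exception on the same strand was LINC02210, whose partner is the readthrough locus LINC02210-CRHR1. The members' windows held a median of 23 CG dinucleotides per 300 bases, against 4 in the other LINC genes and 13 in all 27305 RefSeq windows, and 20 or more were found in 32 of 53 members (60.4%) and 140 of 1216 others (11.5%). Within the members the number ran from 1 to 43. Since the members were picked for their counts, this describes which LINC genes carry reads in these cells, and no test is attached to it.

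Of 3 motifs searched on both strands of the windows, GGGCGG (reverse CCGCCC, which itself contains a CG) was found in 30 of 53 members (56.6%), in 17.8% of the other LINC genes and in 44.5% of all windows. CCAAT (reverse ATTGG) was found in 37.7%, 37.2% and 35.7% respectively, and TATAAA (reverse TTTATA) in 5.66%, 16.6% and 12.02%. Of the 5 windows printed above, LINC01465 and LINC01586 hold GGGCGG, LINC02192 holds CCAAT, LINC00910 holds TATAAA and LINC00894 holds none of them. A match is only a string of letters and says nothing of a bound factor.

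**Figure D1:**
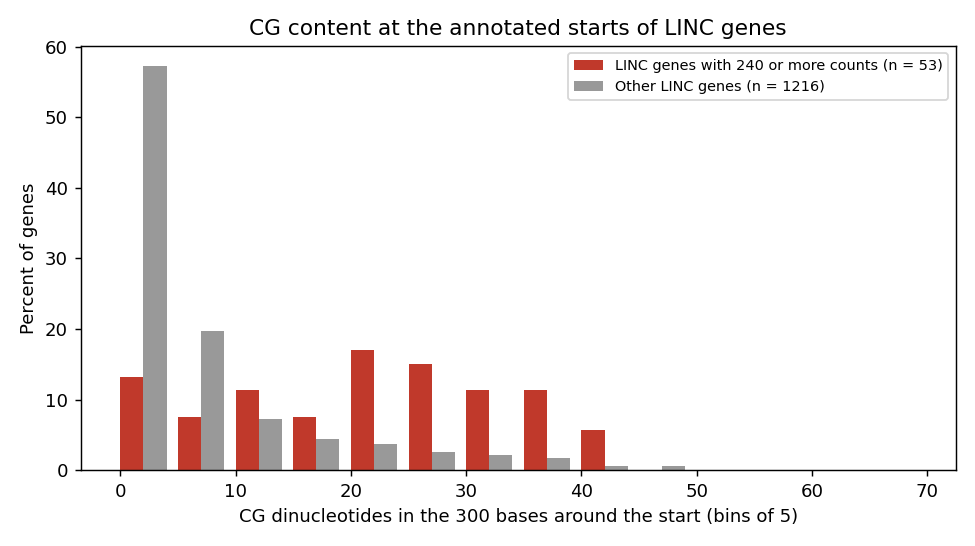
Percent of genes (y axis) by the number of CG dinucleotides in the 300 bases around the annotated start (x axis, bins of 5), for the 53 members with a RefSeq window (red) and 1216 other LINC genes (grey). The members spread up to 43 with a median of 23, and the other LINC genes pile up below 5 with a median of 4.

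Before the groups are compared, the libraries themselves differed. Total counts ran from 353430 to 3539937 and those outside the 37 mitochondrially encoded genes from 257857 to 1116385, with Mock the shallowest group and d28 holding both of the deepest libraries. Nuclear copies of mitochondrial genes took 3.22% to 3.43% of the nuclear counts in Mock, 6.56% to 7.66% in d0, 4.47% to 7.21% in d3 and 16.0% to 19.8% in d28, and leaving them out changed none of the counts of called members below, while the calls among all tested genes went from 118 to 76 in d0 against Mock and from 60 to 34 for d28 against d3. The 65 members together took between 0.436% and 0.504% of the effective library, the d3 samples (0.474% to 0.504%) lying above all others and the other groups overlapping. This order depends on the scaling, since the TMM factors in the effective library ran from 0.847 in d28 to 1.14 in Mock. As a share of the unscaled nuclear counts, d3 (0.455% to 0.496%) overlapped Mock and d0. All d28 samples (0.382% to 0.415%) then lay below all others. Replicates of a member differed by a median coefficient of variation of 17.1%, against 17.0% in 7955 tested genes of the same count range.

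Across the 4 groups the edgeR quasi-likelihood test called 9 of the 65 members (adjusted p below 0.05 over all 27543 tested genes), where 3.30% of all tested genes and 7.83% of the 8363 with 240 or more counts were called. In pairwise comparisons 9 members were called as well, LINC01962 in place of LINC00205, so that 10 members were called in at least 1 test. The share of all tested genes called in at least 1 test was not computed. Single pairwise comparisons called 0.218% to 1.59% of them. For comparison, the 4-group test called 13 of 200 antisense genes, 3 of 10 small nucleolar RNA host genes, 28 of 288 other RefSeq long non-coding RNA genes and 524 of 7282 protein-coding genes, all with 240 or more counts. Among the 855 tested LINC genes under the limit it called 5. The other 55 members were called in none of the tests.

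**Figure D2:**
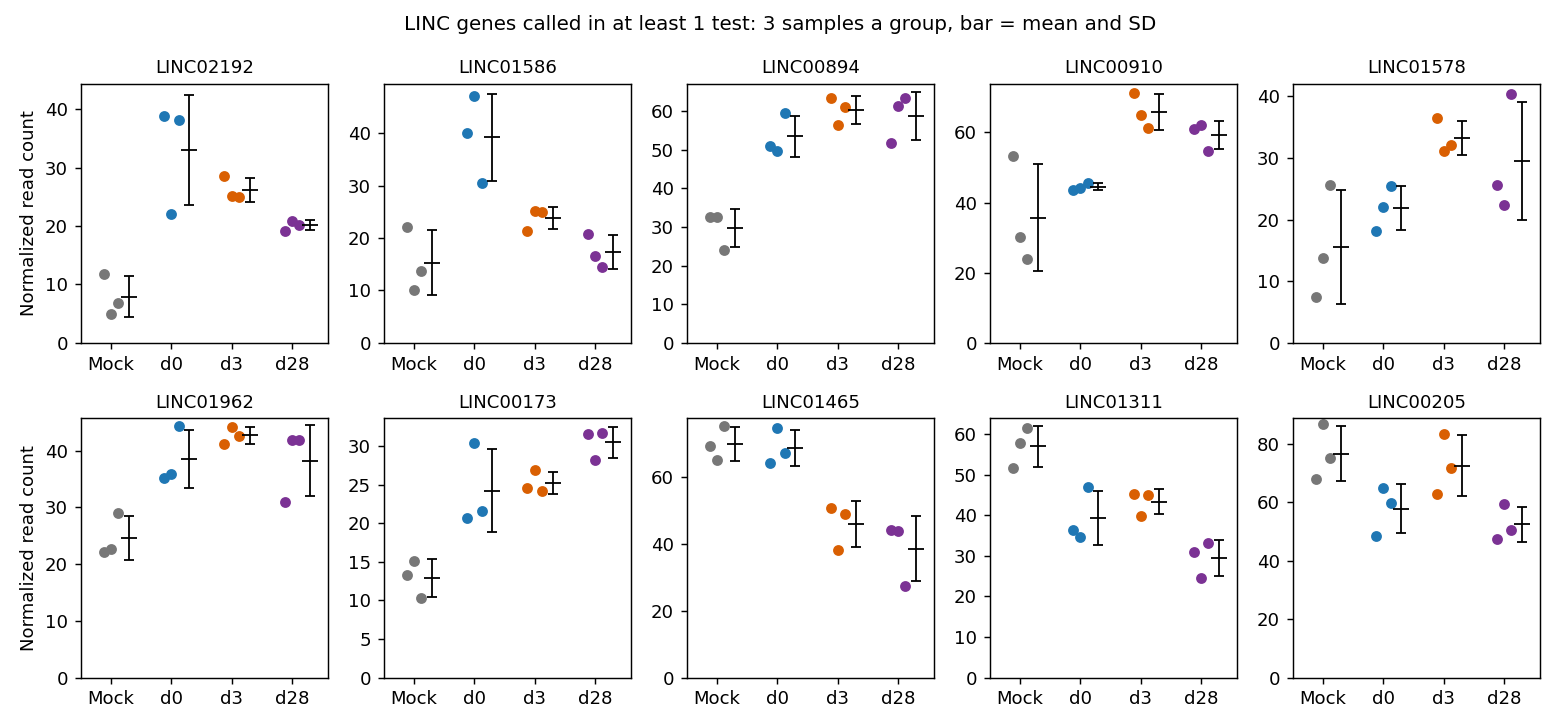
Normalized read count (y axis, from 0) of the 10 LINC genes called in at least 1 test, in each of the 3 samples of Mock, d0, d3 and d28, with the group mean and SD as a bar beside them. LINC02192 and LINC00894 lie below all other samples in Mock, LINC01586 is highest in d0, and LINC01465 and LINC01311 are lowest in d28.

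The comparison of d0 with Mock asks what constitutive MLL-AF4 was accompanied by. LINC02192 and LINC01586 were called with higher read counts and no member with lower ones, that is 2 of 65. The background was 0.428% of all tested genes (0.28% higher, 0.149% lower) and 1.11% of those with 240 or more counts (0.801% higher, 0.311% lower). The groups did not overlap at 8 members that were higher in d0 (7.72% of all tested genes, 10.4% of those with 240 or more counts) and at 7 that were lower (6.68% and 7.31%). The median log2 fold change of the members was -0.03, beside 0.01 for all tested genes and 0.02 for those with 240 or more counts.

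LINC02192 (chr16:47849314-47887130, GRCh38.p14, minus strand) showed the largest change of any member. Its normalized counts were 11.8, 5.02 and 6.84 in Mock, 38.9, 22.1 and 38.1 in d0, 28.5, 25.1 and 24.9 in d3, and 19.2, 20.9 and 20.2 in d28. All 9 samples of the fusion groups lay above all Mock samples. In d0 the log2 fold change was 2.08 ± 0.36 (SE, edgeR adjusted p = 3.53e-06), a 4.24-fold rise, and it stayed past the threshold in each of 22 alternatives (adjusted p 9.68e-07 to 0.0047). The Mock value rests on raw counts of 8, 4 and 4.

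The span of LINC02192 overlaps LINC02133 and lies beside PHKB, a subunit gene of phosphorylase kinase. PHKB had a log2 fold change of 0.31 ± 0.29 in d0 and LINC02133 one of -0.55 ± 1.13, neither called. Over the 5 tested genes on each side the median was 0.18, with none of the 10 called. The window printed for LINC02192 has 3 CG dinucleotides, the fewest among the called members with a window.

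LINC01586 (chr15:88585571-88605110, minus strand) had normalized counts of 22.1, 10.05 and 13.7 in Mock, 40.1, 47.0 and 30.5 in d0, 21.4, 25.1 and 24.9 in d3, and 20.8, 16.6 and 14.4 in d28. All d0 samples stood above all others. Over Mock, d0 had a log2 fold change of 1.36 ± 0.29 (edgeR adjusted p = 0.00199), a 2.57-fold rise. The call was lost with DESeq2 (adjusted p = 0.0997), without Mock replicate 2 (1.10, adjusted p = 0.193) and without d0 replicate 2 (1.22, adjusted p = 0.059).

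LINC01586 overlaps AEN, an exonuclease gene induced by p53. AEN was not called and its estimate had the other sign (-0.46 ± 0.35 in d0). The median of the 10 neighbours was -0.07, with none called.

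At d3 the comparison with Mock covers MLL-AF4 together with induced AF4-MLL. It called 5 members, all higher: LINC02192, LINC01578, LINC00894, LINC00910 and LINC01962. The background was 1.59% of all tested genes (1.28% higher, 0.312% lower) and 3.91% of those with 240 or more counts (3.36% higher, 0.55% lower). The groups did not overlap at 12 members that were higher (12.5% of all tested genes, 20.2% of those with 240 or more counts) and 6 that were lower (4.95% and 3.97%). The median log2 fold change was 0.12 for the members, 0.11 for all tested genes and 0.15 for those with 240 or more counts. The median of the members was -0.008 with DESeq2, -0.007 with RLE factors and -0.08 at equal depth. For all tested genes it was then -0.03, -0.03 and 0.003. The split moved with the scaling, to 4 higher and 1 lower with RLE factors and 3 higher and 2 lower by library sizes alone. Neither DESeq2 nor counts thinned to equal depth called any member (0 each). Of all tested genes, DESeq2 called only 66 of 27543 and thinning 136 of 21959. RLE factors called 270 of 27824 and library sizes alone 261 of 27877. LINC02192 was again the largest, at 1.74 ± 0.35 (adjusted p = 0.000352), with PHKB at 0.65 ± 0.26 and not called.

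LINC01578 (chr15:92882843-92898747, plus strand) is CHASERR, a transcript that starts upstream of the chromatin remodeller gene CHD2 and is known to hold its expression down in cis. Mock gave normalized counts of 7.38, 13.8 and 25.7, and the fusion groups 18.2, 22.1 and 25.4 in d0, 36.5, 31.2 and 32.2 in d3, and 25.6, 22.4 and 40.4 in d28. The d3 samples lay above all Mock and d0 samples, while the Mock samples spread widely. Over Mock, d3 had a log2 fold change of 1.14 ± 0.28 (edgeR adjusted p = 0.00943), and in d28 it was 0.85 ± 0.29 and not called (adjusted p = 0.126). CHD2 itself was at 0.42 ± 0.17 in d3 (adjusted p = 0.25) and 0.35 ± 0.17 in d28, and was not called. The LINC01578 call in d3 was lost without Mock replicate 1 (0.82, adjusted p = 0.227) and without Mock replicate 2 (1.06, adjusted p = 0.129), and without Mock replicate 3 the d28 value was called too (1.33, adjusted p = 0.0346). The d3 call was also lost with DESeq2, by library sizes alone and at equal depth.

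LINC00894 (chrX:149938548-150016787, plus strand) starts 57 bp from EOLA2, listed as CXorf40B in the count table. Normalized counts of LINC00894 were 32.5, 32.6 and 24.0 in Mock, 51.0, 49.8 and 59.6 in d0, 63.4, 56.4 and 61.2 in d3, and 51.8, 61.4 and 63.4 in d28. Every fusion sample was above every Mock sample. On the log2 scale the difference from Mock was 1.00 ± 0.21 in d3 (edgeR adjusted p = 0.000631) and 0.93 ± 0.21 in d28 (adjusted p = 0.00238), and in d0 0.83 ± 0.23 with an adjusted p of 0.0669, which the filterByExpr filter turned into a call (adjusted p = 0.0421). The d3 call held without each library in turn, and the d28 call was lost without Mock replicate 3 (0.82, adjusted p = 0.0516). Both calls were lost with DESeq2 (adjusted p = 0.105 each) and with edgeR at equal depth (adjusted p = 0.139 in d3 and 0.0707 in d28). By library sizes alone the d28 call was lost as well (0.60, adjusted p = 0.0771).

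The partner on the other strand moved less. CXorf40B was at 0.41 ± 0.19 in d0, 0.22 ± 0.18 in d3 and 0.02 ± 0.18 in d28, and was called in none. The related pair elsewhere on the X chromosome, LINC00893, which starts 849 bp from CXorf40A, was at 0.51 ± 0.22, 0.38 ± 0.21 and 0.58 ± 0.20 and was not called either.

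LINC00910 (chr17:43369845-43388898, minus strand) had normalized counts of 53.2, 30.1 and 24.0 in Mock, 43.7, 44.3 and 45.7 in d0, 71.4, 65.02 and 61.2 in d3, and 60.9, 62.1 and 54.8 in d28. The d3 and d28 samples lay above all Mock and d0 samples, and 1 Mock sample lay above all of d0. On the log2 scale the difference from Mock was 0.87 ± 0.20 in d3 (edgeR adjusted p = 0.00247) and 0.74 ± 0.20 in d28 (adjusted p = 0.0223). Against d0 it was 0.56 ± 0.18 in d3 (adjusted p = 0.0918) and 0.43 ± 0.18 in d28 (adjusted p = 0.26). Without Mock replicate 2 neither call held (d3 0.73, adjusted p = 0.13, d28 0.62, adjusted p = 0.265), nor without Mock replicate 3 (d3 0.69, adjusted p = 0.0987, d28 0.56, adjusted p = 0.269), and the d28 call was also lost without d28 replicate 1 (0.68, adjusted p = 0.143) and d28 replicate 2 (0.72, adjusted p = 0.0846). Both LINC00910 calls were also lost with DESeq2 and at equal depth, and the d28 call with RLE factors and by library sizes alone. The gene next to LINC00910, RNU2-1, belongs to a repeated U2 small nuclear RNA array, and it was at 0.30 ± 0.16 in d3.

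LINC01962 (chr5:181191046-181191908, minus strand) is a short gene with a CG-rich start. Normalized counts of LINC01962 were 22.1, 22.6 and 29.1 in Mock, 35.2, 36.0 and 44.4 in d0, 41.2, 44.2 and 42.6 in d3, and 31.0, 41.9 and 41.8 in d28. Mock lay below all other samples. Over Mock, the log2 fold change was 0.66 ± 0.26 in d0, 0.81 ± 0.24 in d3 and 0.60 ± 0.24 in d28, with edgeR adjusted p-values of 0.364, 0.044 and 0.227, and only the d3 value was called. That call held in 9 of 22 alternatives, and it was lost without any one of the 3 Mock replicates (0.74 to 0.93, adjusted p 0.0672 to 0.26), any one of the 3 d3 replicates (0.78 to 0.83, adjusted p 0.0741 to 0.107) and d28 replicate 2 (0.80, adjusted p = 0.0547).

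Apart from LINC01578, the members on the lists of described transcripts were not called at d3. LINC-PINT, a p53-induced transcript that starts 169 bp from MKLN1 and ends close to the MIR29B1 and MIR29A hairpins, was at 36.6 ± 2.7 in Mock, 42.4 ± 9.06 in d0, 53.3 ± 1.65 in d3 and 50.6 ± 1.1 in d28 (SD, n = 3 each). Its d3 and d28 samples lay above all Mock samples, with log2 fold changes of 0.55 ± 0.20 (adjusted p = 0.179) and 0.47 ± 0.21 (adjusted p = 0.288). LINC00963, studied in prostate cancer, went the other way, from 56.0 ± 4.09 in Mock and 51.8 ± 3.77 in d0 to 39.2 ± 3.41 in d3 and 41.0 ± 5.98 in d28. Its d3 and d28 samples lay below all Mock and d0 samples, and the d3 value was -0.52 ± 0.20 (adjusted p = 0.177).

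LINC00511, reported to bind EZH2, had overlapping groups in every comparison, with means from 17.9 ± 3.28 in d0 to 24.9 ± 5.88 in d28. LINC01089 overlaps SETD1B, which encodes a histone H3 lysine methyltransferase related to MLL. Its means ran from 28.4 ± 7.94 in d0 to 41.5 ± 5.05 in d28, with d28 and d3 above d0 in every sample and no call (0.51 ± 0.22, adjusted p = 0.275, and 0.47 ± 0.22, adjusted p = 0.351). Thus, 1 of 6 members on the lists of microRNA hosts and of transcripts studied in chromatin, p53 or stem cell regulation, LINC01578, was called, and only in d3 against Mock. That comparison called 1.59% of all tested genes and 3.91% of those with 240 or more counts. Among all 65 members 9 were called in some pairwise comparison, so 6 genes are too few to set the lists apart. Of the LINC genes listed for encoding a small protein, those with an entry under the listed symbol stayed under 240 summed counts. These were LINC00467 with 148, LINC00518 with 83, LINC01018 with 35 and LINC00266-1 with 17. Most of that list had no entry under the listed symbol, so nothing can be said of them.

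The comparison of d28 with Mock covers cells kept until day 28. It called 6 members, 4 higher (LINC02192, LINC00173, LINC00894, LINC00910) and 2 lower (LINC01465, LINC01311), against a background of 1.39% of all tested genes (0.998% higher, 0.392% lower) and 3.18% of those with 240 or more counts (2.28% higher, 0.897% lower). The groups did not overlap at 12 members that were higher (11.6% of all tested genes, 15.3% of those with 240 or more counts) and 10 that were lower (6.28% and 7.81%). The median log2 fold change was 0.04 for the members, 0.10 for all tested genes and 0.07 for those with 240 or more counts. This split depends on the scaling: by library sizes alone, which moves the median of all tested genes in d28 from 0.10 to -0.25, none was called higher and 10 lower, and with RLE factors 2 were higher and 3 lower. DESeq2 and counts thinned to equal depth each called 2, LINC01465 and LINC01311, both lower. Of all tested genes, library sizes alone called 1305 of 27877 and RLE factors 335 of 27824. DESeq2 called 86 of 27543 and thinning 143 of 21959.

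LINC00173 (chr12:116533422-116536513, plus strand), described as a granulocyte transcript in blood, had normalized counts of 13.3, 15.1 and 10.3 in Mock, 20.7, 30.4 and 21.6 in d0, 24.6, 26.9 and 24.1 in d3, and 31.5, 28.2 and 31.7 in d28. All fusion samples were above Mock, and d28 was above d3. The log2 fold change was 1.20 ± 0.30 in d28 (edgeR adjusted p = 0.00865), a 2.30-fold rise, and 0.87 ± 0.34 in d0 and 0.93 ± 0.31 in d3 without a call (adjusted p = 0.354 and 0.103). The call was lost without Mock replicate 3 (1.09, adjusted p = 0.083) and without d28 replicate 1 (1.12, adjusted p = 0.08). It was also lost with DESeq2 (1.13, adjusted p = 0.258), by library sizes alone (0.87, adjusted p = 0.069) and at equal depth (1.20, adjusted p = 0.0881). MED13L, the nearest tested gene on the left, was at 0.40 ± 0.28.

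LINC02192 remained higher in d28, at 1.35 ± 0.37 (adjusted p = 0.0258). This call was lost without Mock replicate 2 (1.08, adjusted p = 0.283), Mock replicate 3 (1.29, adjusted p = 0.126), d28 replicate 1 (1.35, adjusted p = 0.0835) or d28 replicate 2 (1.32, adjusted p = 0.0801). It was also lost with DESeq2 (1.28, adjusted p = 0.36), RLE factors, library sizes alone, no filter and equal depth, and held in 13 of 22 alternatives. For d3 the LINC02192 call was lost without Mock replicate 2 (1.45, adjusted p = 0.0526), with DESeq2 (1.62, adjusted p = 0.0742) and at equal depth (1.53, adjusted p = 0.0667).

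LINC01465 (chr12:62601751-62603434, minus strand) fell. Normalized counts of LINC01465 were 69.4, 65.3 and 75.3 in Mock, 64.4, 74.7 and 67.3 in d0, 50.7, 38.1 and 49.1 in d3, and 44.3, 44.1 and 27.4 in d28. Mock and d0 overlapped, with a log2 fold change of -0.02 ± 0.18, and every d3 and d28 sample lay below every Mock and d0 sample. Against Mock the log2 fold change was -0.76 ± 0.18 in d28 (edgeR adjusted p = 0.00583) and -0.59 ± 0.18 in d3 (adjusted p = 0.0576). Against d0 it was -0.74 ± 0.18 in d28 (adjusted p = 0.00804) and -0.57 ± 0.17 in d3 (adjusted p = 0.0689).

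Both d28 calls of LINC01465 held with DESeq2, under each scaling and at equal depth. The call against Mock was lost without Mock replicate 3 (-0.71, adjusted p = 0.0592), and that against d0 without d0 replicate 2 (-0.68, adjusted p = 0.0887) or d28 replicate 3 (-0.63, adjusted p = 0.0539). Both d3 values were called with RLE factors (-0.72, adjusted p = 0.0101 against Mock, and -0.67, adjusted p = 0.021 against d0). The neighbouring MIRLET7I, whose 5p sequence is printed above, was at -1.58 ± 0.77 in d28 (adjusted p = 0.36) and at -0.14 ± 0.64 in d3. MON2 on the other side was at 0.58 ± 0.26 in d28 and not called.

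LINC01311 (chr22:19171706-19172832) also fell. Its normalized counts were 51.7, 57.8 and 61.6 in Mock, 36.4, 34.6 and 47.0 in d0, 45.2, 39.9 and 45.1 in d3, and 31.0, 24.6 and 33.2 in d28. Mock lay above all other samples and d28 below them. The log2 fold change was -0.96 ± 0.20 in d28 (edgeR adjusted p = 0.000835), to 0.513 of the Mock level, and -0.53 ± 0.21 in d0 and -0.39 ± 0.19 in d3 without a call (adjusted p = 0.394 and 0.39). The d28 call held in each of 22 alternatives (adjusted p up to 0.033). LINC01311 lies between TSSK2, at -0.92 ± 0.80 in d28, and SLC25A1, the mitochondrial citrate carrier gene, at 0.05 ± 0.23. Of its 10 neighbours 1 was called.

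LINC00205 (chr21:45288052-45297354, plus strand) was called in the 4-group test (adjusted p = 0.0452) and in no pairwise comparison. The call was lost with DESeq2, without a filter, with the replicate block, at equal depth and in 9 of 12 omissions of a single library, and it held without Mock replicate 1, d0 replicate 2 or d3 replicate 1. Its normalized counts were 67.9, 86.6 and 75.3 in Mock, 48.6, 65.01 and 59.6 in d0, 62.6, 83.2 and 71.6 in d3, and 47.5, 59.2 and 50.5 in d28. The d0 and d28 samples lay below all Mock samples, and 1 d3 sample did as well while the other 2 lay among them. In d28 the log2 fold change was -0.56 ± 0.17 (adjusted p = 0.0615), called with RLE factors (-0.65, adjusted p = 0.0169), by library sizes alone (-0.89, adjusted p = 5.02e-05) and with filterByExpr (-0.56, adjusted p = 0.0387). POFUT2, a protein O-fucosyltransferase gene whose start is 157 bp away on the other strand, was at 0.20 ± 0.36.

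**Figure D3:**
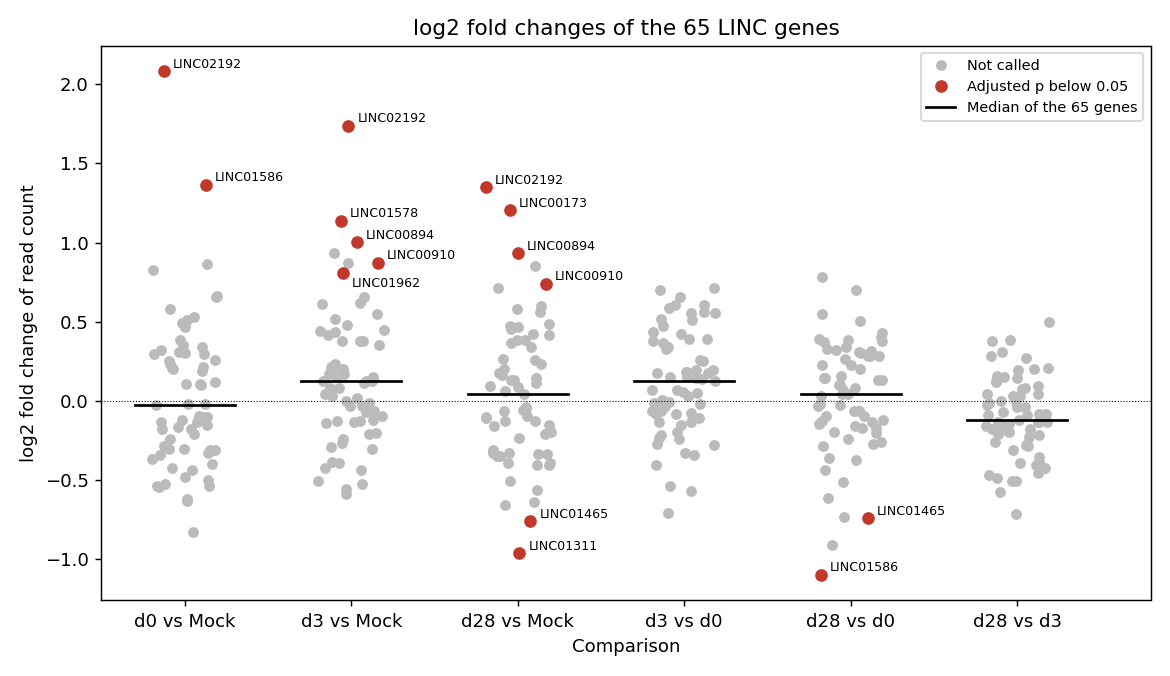
log2 fold change of read count (y axis) of each of the 65 LINC genes in the 6 pairwise comparisons (x axis), red and named where the adjusted p was below 0.05, with the median as a line. The medians lie between -0.12 and 0.13, and LINC02192 in d0 is the highest point at 2.08.

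The comparison of d3 with d0 sets cells with induced AF4-MLL beside cells with MLL-AF4 alone. The d3 cells had also gone through the later transfection, blasticidin and doxycycline, and these cannot be told apart from AF4-MLL. The edgeR test called none of the 65 members, against a background of 1.23% of all tested genes (1.01% higher, 0.225% lower) and 3.13% of those with 240 or more counts (2.75% higher, 0.383% lower). At an unadjusted p below 0.05 there were 15 members (23.1%), beside 12.1% of all tested genes and 20.1% of those with 240 or more counts. DESeq2 called 0 members and only 23 of all 27543 tested genes. With RLE factors, library sizes alone or the filterByExpr filter 1 member was called, LINC01465, which was lower in d3. Of all tested genes these called 233 of 27824, 218 of 27877 and 440 of 14325 respectively. The groups did not overlap at 12 members that were higher in d3 (12% of all tested genes, 18.9% of those with 240 or more counts) and 4 that were lower (5.81% and 5.05%). The median log2 fold change was 0.13 for the members, 0.08 for all tested genes and 0.13 for those with 240 or more counts.

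Between d28 and d0, cells with the same labelled genotype at the start and the end of the series, 2 members were called, LINC01586 and LINC01465, both lower in d28. The d28 cells had gone through the later transfection, both drugs, AF4-MLL induction and more time in culture, which cannot be told apart. By library sizes alone 7 members were called, all lower, along with 930 of all 27877 tested genes in either direction. The background was 1.18% of all tested genes (0.726% higher, 0.454% lower) and 2.76% of those with 240 or more counts (1.76% higher, 1% lower). LINC01586 fell by 1.10 on the log2 scale (SE 0.24, edgeR adjusted p = 0.00244), back to 17.3 ± 3.26 beside 15.3 ± 6.21 in Mock (SD, n = 3 each). The log2 fold change of d28 over Mock was 0.26 ± 0.32 for this gene, and its d3 mean of 23.8 ± 2.1 lay between, at -0.71 ± 0.23 against d0 (adjusted p = 0.102). Without d0 replicate 2 neither call against d0 held, LINC01586 then being at -0.96 (adjusted p = 0.0829), and at equal depth LINC01586 was not called (-1.13, adjusted p = 0.121).

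The groups did not overlap at 3 members that were higher in d28 than in d0 (11.9% of all tested genes, 13.4% of those with 240 or more counts) and 11 that were lower (6.59% and 8.96%). LINC02192 was among the lower ones, with -0.73 ± 0.25 and no call (adjusted p = 0.114). The median log2 fold change was 0.05 for the members, 0.09 for all tested genes and 0.06 for those with 240 or more counts.

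From d3 to d28, after AF4-MLL had been shut down, the edgeR test called none of the members, against a background of 0.218% of all tested genes (0.113% higher, 0.105% lower) and 0.586% of those with 240 or more counts (0.287% higher, 0.299% lower). The drugs had been withdrawn and time in culture had passed as well, and these cannot be told apart. At an unadjusted p below 0.05 there were 11 members (16.9%), beside 8.75% of all tested genes and 12.2% of those with 240 or more counts. DESeq2 called 0 members, while scaling by library sizes alone gave 4, all lower. Of all tested genes, DESeq2 called 26 of 27543 and library sizes alone 522 of 27877. The median log2 fold change was -0.12 for the members and -0.003 for all tested genes, and -0.08 for those with 240 or more counts. The groups did not overlap at 1 member that was higher, LINC00173 (6.42% of all tested genes, 3.77% of those with 240 or more counts), and 11 that were lower (7.97% and 13.4%).

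To see whether the called members moved with their surroundings, each was set beside the 5 tested genes on either side. The median of these 10 lay between -0.22 and 0.45 in the 15 called combinations of gene and comparison, and at most 1 of the 10 was called in any of them. LINC00894 and LINC01465 lay inside the range of their neighbours, some of which had few counts and wide errors, and the other 7 genes lay outside it in each of their called comparisons. LINC01311 did so narrowly, at -0.96 beside a lowest neighbour of -0.92. The called members were picked for large changes in these same data and the neighbours were not. Lying outside the range therefore cannot show a change apart from the surroundings. The coding genes at the starts of members were not called against Mock in any of the 11 tested cases. The largest among the named ones were C1orf174 beside LINC01134, at 0.95 ± 0.48 in d3, and MKLN1 beside LINC-PINT, at 0.69 ± 0.29.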

How the data were processed

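Gene counts from ATAC-Seq of 12 HEK293T samples were used. The authors made them with bcl2fastq, Bowtie2 and HTSeq on GRCh38 per the labels (versions, read shift, duplicate handling and the counted interval are not given in the sources used here), and they deposited raw counts per gene. From these counts the following was computed. The 37 mitochondrially encoded genes were left out, TMM factors were set, and the test, run on the 27543 genes whose mean scaled count passed 2 in some group, was that of edgeR 4.0.16 (quasi-likelihood F test, all 12 samples in 1 fit, 6 pairwise contrasts and a 4-group test), with Benjamini-Hochberg adjustment over all of them. A gene was called at an adjusted p below 0.05. SE is the log2 fold change divided by the root of F. A normalized count is scaled to the mean effective library. The steps were tested on simulated data.

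DESeq2 1.42.0, other scalings and filters, a replicate block, single-library omission and thinning were tried as alternatives. Depth ran from 257857 to 1116385 counts without the mitochondrial genes. The p-values rest on a spread that the 4 groups share in 1 fit and that is drawn partly from other genes, with 3 samples a group. Genes were named for a high count or count per kb, a call, a place on a list of described transcripts, or nearness to the limit of 240. The members and lists were chosen with earlier results of these data known. Positions, start windows and microRNAs are from RefSeq GRCh38.p14.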

Additional observations from a re-analysis of the deposited data

How the results depend on the processing

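The counts of called members moved with the tool, the depth and the scaling. DESeq2, which also sets its own size factors, called 4 among the 4 groups, 1 in d0, 0 in d3 and 2 in d28 against Mock, and thinning every sample to 257857 counts, an alternative chosen after seeing the data, gave 3 among the 4 groups, 0 in d3 and 2 in d28 against Mock, and 1 for d28 against d0. By library sizes alone 14 were called among the 4 groups, 10 for d28 against Mock, 1 for d3 against d0, 7 for d28 against d0 and 4 for d28 against d3. Over all tested genes this scaling called 1305 for d28 against Mock, 218 for d3 against d0, 930 for d28 against d0 and 522 for d28 against d3. It also moved the median of all tested genes, and the cause of the added calls was not tested. RLE factors and filterByExpr each gave 1 for d3 against d0, and filterByExpr gave 3 for d0 against Mock. Over all tested genes DESeq2 called 38 in d0, 66 in d3 and 86 in d28 against Mock. Thinning called 136 in d3 and 143 in d28 against Mock, and 82 for d28 against d0. Of the 15 called combinations of gene and comparison, 5 were kept with DESeq2 and 5 after thinning, and none changed sign.

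Leaving out 1 library gave 5 to 9 calls among the 4 groups, 1 to 2 in d0, 1 to 5 in d3 and 2 to 6 in d28 against Mock, 0 for d3 against d0, 0 to 2 for d28 against d0 and 0 for d28 against d3. Over all tested genes these omissions gave 66 to 122 calls in d0, 161 to 453 in d3 and 171 to 399 in d28 against Mock. They gave 129 to 355 for d3 against d0, 118 to 338 for d28 against d0 and 33 to 61 for d28 against d3. Without Mock replicate 2 the 4 groups gave 5 members, d0 gave 1 and d3 gave 1. Without Mock replicate 1 or 3 d3 gave 3, without Mock replicate 3 d28 gave 2, and without d28 replicate 1 it gave 3. Without d0 replicate 2 d0 against Mock gave 1 and d28 against d0 gave 0, and without d28 replicate 3 the latter gave 1. The cause was not tested.

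With the replicate number as a block 8 members were called among the 4 groups, LINC00205 being lost, and 2, 5, 6, 0, 2 and 0 in the comparisons of d0, d3 and d28 with Mock, d3 with d0, d28 with d0 and d28 with d3. No pairing of the samples by number was seen: deviations of same-numbered samples correlated between -0.153 and 0.0843 over 18 pairs, and 5 of the 18 were highest with their own number. Weak correlations of this kind cannot exclude a pairing. Including the mitochondrial genes in the scaling, leaving out their nuclear copies, or choosing members by normalized sums gave the same counts of members as reported. Among all tested genes the calls went from 118 to 76 in d0 against Mock and from 60 to 34 for d28 against d3 without the nuclear copies, and for d28 against d3 to 103 with the mitochondrial genes in the scaling. Raw counts as low as 4 in Mock limit what small changes could be seen.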
